A study of Mus musculus with 24 samples.

Results

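The genes described here encode the subunits of the proteasome, taken as every probe set annotated to exactly 1 mouse symbol made of Psma, Psmb, Psmc, Psmd or Psme and a number. This gave 88 probe sets of 42 genes, out of 45037 probe sets of 18193 genes tested. The rule picks probe sets by name and uses no measured value, but the members were chosen with earlier results of these data known. Hearts of 90-day-old mice of 4 genotypes were profiled on Affymetrix arrays, with 6 hearts, stated to be biological replicates, per genotype. NTG hearts came from non-transgenic mice, AC5 hearts from mice with a transgene for human adenylyl cyclase 5, and GLY and ARG hearts from mice with a transgene for the Gly389 or the Arg389 form of the human beta1-adrenergic receptor. All 3 transgenes were driven by the alpha-myosin heavy chain promoter, which directs expression to cardiac myocytes, so other cells of the heart were not targeted. The labels do not give the number of founder lines, the strain or the sex. The series asks how the 2 receptor forms differ in the genes they regulate in the heart.

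The proteasome is the protease complex that destroys proteins tagged with ubiquitin. Its barrel, the 20S core, is a stack of rings of alpha and beta subunits, and its cutting sites lie on the beta subunits encoded by Psmb5, Psmb6 and Psmb7. In immune cells and in cells exposed to interferon-gamma, these are replaced by Psmb8, Psmb9 and Psmb10 to form the immunoproteasome, which favours peptides for class I antigen presentation. The 19S cap recognises and unfolds tagged proteins: its base holds the ATPases Psmc1 to Psmc6, and its lid removes the ubiquitin. Psme1 to Psme4 encode activators that can dock on the core in place of the cap. In cardiac muscle the proteasome takes part in the turnover of contractile and signalling proteins. The subunits are known to be raised together when activity falls short, through the factor Nfe2l1.

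The bases before the gene starts are shown for 5 of these genes: for Psmd8 and Psmd10, whose array values differed between genotypes, and for a constitutive catalytic subunit and a pair of immunoproteasome subunits. All come from the RefSeq promoter table of GRCm38.p6 and run 5′ to 3′ on the strand of the gene, the 150 bases up to its start. Capitals mark any match, on either strand, to the antioxidant response element core TGACNNNGC, the CCAAT box or the core of the interferon-stimulated response element. Psmd8 lies at chr7:29180674-29180823 on the minus strand, Psmd10 at chrX:140956712-140956861 on the minus strand, Psmb5 at chr14:54617996-54618145 on the minus strand, Psmb9 at chr17:34187331-34187480 on the minus strand, and Psmb8 at chr17:34198045-34198194 on the plus strand.
Psmd8: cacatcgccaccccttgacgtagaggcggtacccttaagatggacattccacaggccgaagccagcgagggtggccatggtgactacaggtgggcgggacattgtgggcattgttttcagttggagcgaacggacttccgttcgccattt
Psmd10: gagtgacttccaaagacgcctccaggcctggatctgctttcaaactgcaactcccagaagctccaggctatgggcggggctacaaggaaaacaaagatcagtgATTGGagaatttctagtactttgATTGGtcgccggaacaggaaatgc
Psmb5: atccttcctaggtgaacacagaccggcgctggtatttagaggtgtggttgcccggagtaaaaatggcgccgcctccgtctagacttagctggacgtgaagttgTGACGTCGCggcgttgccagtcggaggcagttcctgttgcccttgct
Psmb9: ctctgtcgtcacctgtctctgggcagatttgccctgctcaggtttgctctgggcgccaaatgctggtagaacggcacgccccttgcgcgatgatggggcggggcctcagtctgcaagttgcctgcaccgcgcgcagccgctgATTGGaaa
Psmb8: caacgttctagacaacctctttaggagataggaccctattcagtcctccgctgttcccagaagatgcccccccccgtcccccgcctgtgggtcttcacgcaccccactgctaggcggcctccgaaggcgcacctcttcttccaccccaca
The Psmd10 stretch holds 2 CCAAT boxes, read as ATTGG on this strand, Psmb9 holds 1, and Psmb5 holds 1 antioxidant response element core, TGACGTCGC. The starts of Psmb9 and Tap1, a transporter of antigen peptides, lie 226 bases apart on opposite strands. Of the 42 genes, 35 had a promoter entry. In the 250 bases before the start, TGACNNNGC was found in 5 of these 35 genes (14.3%; Psmb5, Psmb6, Psmc6, Psmd12 and Psmd9) and in 10.2% of all 32851 windows in the table. CCAAT was found in 14 of 35 (40.0%, against 33.8% of windows), and the interferon-stimulated core in 3 of 35 (8.57%, against 2.98%). These matches describe the letters of the windows, and the array values carry no measure of binding.

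The deposited values are ratios with the NTG arrays centred near 1, and every value below is log2 of such a ratio. A value of 0 is thus about the usual NTG level of that probe set, and levels cannot be compared between genes. Differences are given as log2 ± standard error (SE) from limma, fitted on all 24 arrays, and "rose" and "fell" are used for an adjusted p under 0.05 over all 45037 probe sets. Tissue markers could likewise be compared between genotypes but not as levels. RNA came from whole hearts, so fewer cells of a type and less RNA per cell cannot be told apart. Arrays differed in spread: GLY replicates 1 and 3 had array weights of 0.354 and 0.312 and ARG replicate 1 one of 0.478, against 0.568 to 2.02 in the other 21. In ARG against NTG, 10 of 16 macrophage markers and 4 of 7 fibroblast markers rose and none fell. Of 8 endothelial markers 2 fell and none rose. Of 10 cardiac muscle cell markers 1 fell (Ttn, at 1 of its 6 probe sets) and none rose. Of all 45037 probe sets, 9.67% were called in this comparison: 4.04% rose, and 2537 probe sets fell. The mean of the macrophage markers was -0.06 to 0.07 in NTG, -0.18 to 0.16 in AC5, -0.29 to 0.50 in GLY and 0.22 to 0.90 in ARG hearts.

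Most proteasome probe sets differed little between the 4 genotypes, and so did most of all probe sets on the arrays. In ARG against NTG, 2 of 88 probe sets rose (2.27%) and none fell, where 9.67% of all probe sets were called and 4.04% rose. In GLY against NTG 1 fell (1.14%) and none rose, against 5.08% of all probe sets called and 3.53% that fell. In AC5 against NTG none was called by limma (5 at an unadjusted p under 0.05), where 0.142% of all probe sets were called. In ARG against GLY none was called (4 at an unadjusted p under 0.05), against 1.51% of all. In ARG against AC5 1 rose (1.14%), against 4.93% of all called and 2.52% that rose, and in GLY against AC5 none was called (7 at an unadjusted p under 0.05; 0.693% of all). The calls fell on Psmd8, Psmd13 and Psmd10.

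**Figure D1:**
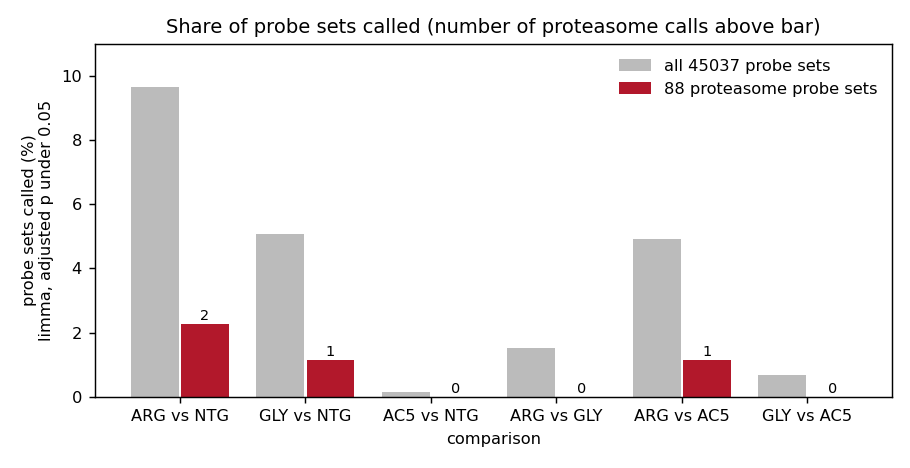
Share of probe sets called by limma at an adjusted p under 0.05 in each of the 6 comparisons, in percent, for all 45037 probe sets (grey) and for the 88 proteasome probe sets (red). The proteasome bars stand at 2.27% and 1.14% in ARG and GLY against NTG, where all probe sets stand at 9.67% and 5.08%.

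The differences were small in either direction. The median difference of the 88 probe sets from NTG was 0.01 in ARG, 0.04 in GLY and -0.01 in AC5 hearts, and -0.01 between ARG and GLY; that of all probe sets was 0.00, 0.03, 0.00 and -0.02. Without regard to sign, the median size was 0.0814 for ARG hearts relative to NTG (all probe sets, 0.0956) and 0.0973 for GLY hearts (all, 0.0989). Of the 88 differences, 81 were smaller than 0.25 in ARG against NTG, 79 for GLY, 84 for AC5 and 83 between ARG and GLY. The 95% interval of the difference lay within a 1.5-fold change (0.585 on the log2 scale) for 84 of 88 probe sets in ARG against NTG (95.5%; 88.4% of all probe sets). The same held for 82 in the GLY comparison with NTG (93.2%; 90.2%), 85 in that of AC5 (96.6%; 95.8%) and 83 between the receptor forms (94.3%; 92.4%). For these probe sets a change larger than 1.5-fold lay outside the interval. A difference that was not called may still hold a smaller change.

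**Figure D2:**
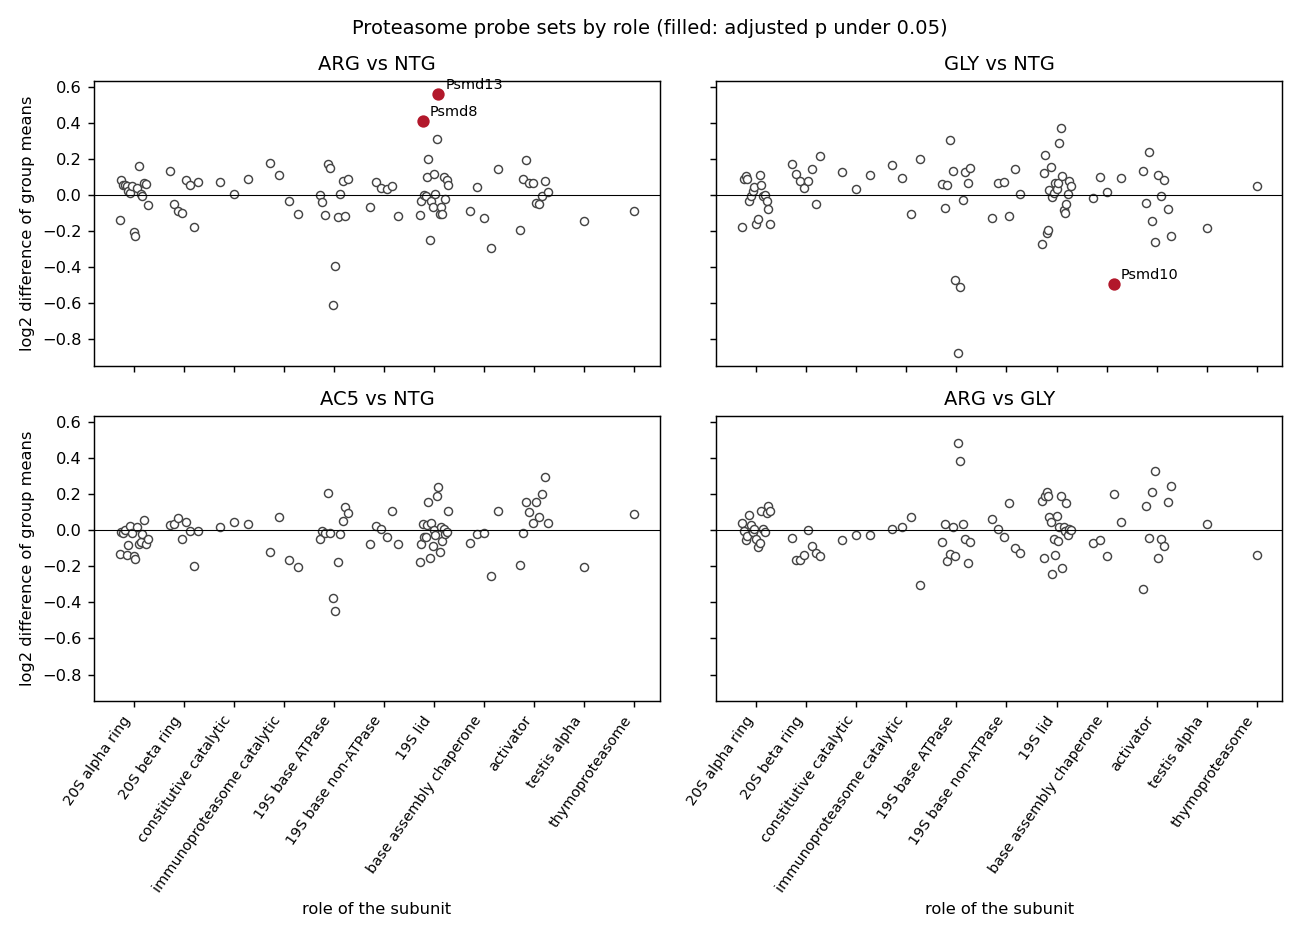
Difference of group means (log2, vertical axis) of each of the 88 proteasome probe sets by the role of the subunit (horizontal axis), in 4 comparisons; filled points had an adjusted p under 0.05. Most points lie within 0.25 of 0, and the lowest open points are probe sets of Psmc6, at -0.61 in ARG and -0.87 in GLY against NTG.

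The alpha ring, which forms the gate of the core, is encoded by Psma1 to Psma7 and was covered by 17 probe sets. None was called in any of the 6 comparisons. Their differences ran from -0.23 (Psma1) to 0.16 (Psma3) in ARG against NTG, and from -0.18 (Psma1) to 0.11 (Psma6) in GLY against NTG. All 17 intervals lay within 1.5-fold in each of the 6 comparisons. The noncatalytic beta subunits Psmb1 to Psmb4, 8 probe sets, were also not called, with differences from -0.18 (Psmb4) to 0.13 (Psmb3) in ARG against NTG and from -0.05 (Psmb4) to 0.22 (Psmb3) in GLY against NTG. Psmb4 (1451205_at) was 1 of 2 probe sets whose values did not overlap between ARG and NTG (2.27%, against 6.11% of all probe sets), with a difference of -0.18 ± 0.07 and an adjusted p of 0.166 (limma). No proteasome probe set was free of overlap in AC5 against NTG (1.22% of all), ARG against AC5 (3.07%) or ARG against GLY (0.793%). Psma8, the testis form of an alpha subunit, and Psmb11, the thymus form of a catalytic one, were not called either.

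Of the constitutive catalytic subunits, Psmb5 carries the chymotrypsin-like site. Its values were -0.07 to 0.10 in NTG (median 0.04), -0.14 to 0.21 in AC5 (median 0.09), -0.02 to 0.45 in GLY (median 0.11) and 0.03 to 0.21 in ARG (median 0.08). All 4 ranges overlapped, and GLY replicate 3 was the highest heart. The difference from NTG was 0.07 ± 0.08 in ARG, 0.13 ± 0.08 in GLY and 0.02 ± 0.08 in AC5, with adjusted p of 0.714, 0.417 and 0.987 (limma). Psmb6 carries the caspase-like site. It ranged from -0.10 to 0.08 in NTG, -0.04 to 0.16 in AC5, 0.02 to 0.26 in GLY and -0.14 to 0.27 in ARG, with medians of 0.03, 0.07, 0.13 and 0.15. The ranges overlapped again, and the differences from NTG were 0.09 ± 0.07 in ARG, 0.11 ± 0.07 in GLY and 0.04 ± 0.07 in AC5 (adjusted p 0.566, 0.420 and 0.972). Psmb7, the trypsin-like site, spanned -0.09 to 0.08 in NTG, -0.03 to 0.14 in AC5, -0.10 to 0.14 in GLY and -0.14 to 0.08 in ARG, with medians of 0.00, 0.06, 0.08 and 0.03. Its difference from NTG was at most 0.05 (AC5), and no pair of genotypes was separated.

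The immunoproteasome subunits were more variable between hearts than their constitutive counterparts, and none was called in any of the 6 comparisons. Psmb8, which takes the place of Psmb5, was -0.17 to 0.03 in NTG (median -0.09), -0.60 to 0.02 in AC5 (median -0.12), -0.31 to 0.55 in GLY (median 0.00) and -0.17 to 0.31 in ARG (median 0.15) at probe set 1422962_a_at. ARG and GLY hearts thus reached above the NTG range without leaving it as a group, with differences from NTG of 0.18 ± 0.12 and 0.17 ± 0.12 (adjusted p 0.493 and 0.503, limma). A second probe set of Psmb8, 1444619_x_at, gave 0.11 ± 0.07 and 0.09 ± 0.07. In AC5 against NTG the pair differed in sign, at -0.12 ± 0.12 and 0.07 ± 0.07.

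Psmb9, which replaces Psmb6, had values of -0.16 to 0.12 in NTG, -0.48 to 0.03 in AC5, -0.18 to 0.79 in GLY and -0.58 to 0.27 in ARG, with medians of 0.04, -0.17, 0.15 and -0.05. GLY replicate 3 was the highest heart and ARG replicate 1 the lowest, and all ranges overlapped. The difference from NTG was -0.10 ± 0.14 in ARG, 0.20 ± 0.14 in GLY and -0.20 ± 0.14 in AC5 (adjusted p 0.779, 0.471 and 0.847). ARG against GLY was -0.30 ± 0.14, with an adjusted p of 0.330. For ARG against GLY its 95% interval ran from -0.59 to -0.02 and so was not within 1.5-fold. The difference was larger in GLY against AC5, at 0.40 ± 0.14 (adjusted p 0.203, limma). Its interval there, 0.12 to 0.69, was not within 1.5-fold either. Psmb10, which replaces Psmb7, had values of -0.07 to 0.16 in NTG, -0.28 to 0.05 in AC5, -0.57 to 0.36 in GLY and -0.32 to 0.17 in ARG, with medians of 0.01, -0.13, -0.09 and 0.03. Its differences from NTG were -0.03 ± 0.11 in ARG, -0.11 ± 0.11 in GLY and -0.16 ± 0.11 in AC5 (adjusted p 0.929, 0.664 and 0.842).

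**Figure D3:**
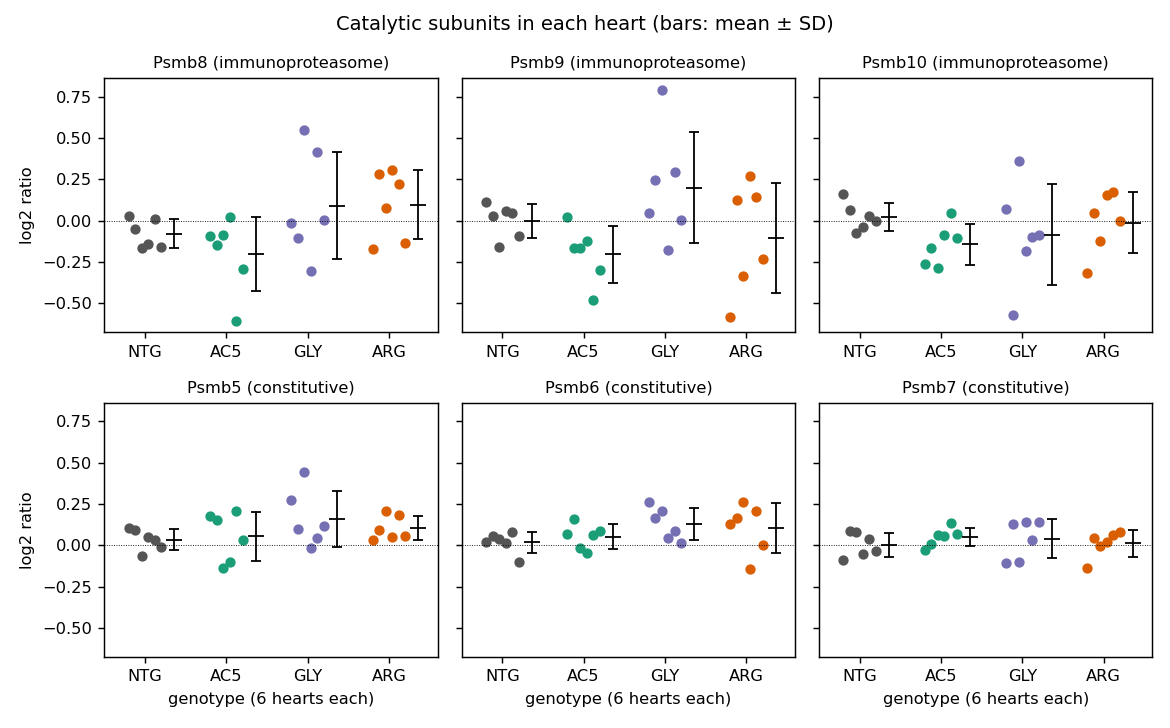
Log2 ratio (vertical axis) of the 3 immunoproteasome and the 3 constitutive catalytic subunits in each of 6 hearts per genotype (horizontal axis); points are hearts, and bars are mean ± SD. Psmb8 is shown at 1422962_a_at. Psmb9 spreads from -0.18 to 0.79 in GLY and Psmb6 from 0.02 to 0.26, and all genotypes overlap for each gene.

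Averaged over the 3 genes of each kind, each gene as the mean of its probe sets, the immunoproteasome subunits lay at -0.01 ± 0.06 (NTG), -0.14 ± 0.05 (AC5), 0.06 ± 0.24 (GLY) and -0.01 ± 0.20 (ARG; SD, n = 6). The constitutive subunits lay at 0.02 ± 0.04, 0.05 ± 0.07, 0.11 ± 0.05 and 0.08 ± 0.08. Immunoproteasome minus constitutive was -0.03 ± 0.07 for NTG, -0.19 ± 0.11 for AC5, -0.05 ± 0.22 for GLY and -0.08 ± 0.20 for ARG hearts. This is a score over chosen genes and carries no test. AC5 hearts ran from -0.35 to -0.06 and NTG hearts from -0.12 to 0.07, so the ranges overlapped. Among GLY and ARG hearts the score ran from -0.25 to 0.32 and from -0.32 to 0.21, with GLY replicate 3 highest and ARG replicate 1 lowest. The median SD between hearts of the 4 immunoproteasome probe sets was 0.316 in GLY and 0.198 in ARG, against 0.119 and 0.0796 for the 3 constitutive ones and 0.193 and 0.175 for all probe sets. In NTG these were 0.0943, 0.0650 and 0.131.

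The activator Psme1, a subunit of the interferon-inducible PA28 ring, was the member nearest to a call between the receptor forms. Its values were -0.11 to 0.19 in NTG, -0.32 to 0.00 in AC5, 0.01 to 0.41 in GLY and -0.51 to 0.04 in ARG, with medians of 0.05, -0.12, 0.15 and -0.12. GLY hearts all lay above the AC5 hearts, while GLY and ARG overlapped slightly. The difference was -0.32 ± 0.09 in ARG against GLY (adjusted p 0.0524) and 0.33 ± 0.09 in GLY against AC5 (adjusted p 0.0754), both just outside the threshold of limma. Psme1 was the 1 probe set of 88 without overlap between GLY and AC5 (1.14%, against 0.995% of all). Leaving out 1 heart moved the adjusted p of ARG against GLY between 0.0222 (without GLY replicate 6) and 0.161 (without ARG replicate 4), and it was under 0.05 also without ARG replicate 1 or 3. After quantile normalization the difference was -0.25 (adjusted p 0.385), and with only the 2 genotypes fitted the adjusted p was 0.279. It was 0.0356 with the set of replicates as a term and 0.0496 with a trended, robust prior. Psme2, the partner of Psme1, was left out because its probe set carries 2 symbols. Psme3, the nuclear relative of PA28, had a probe set (1418079_at) without overlap between GLY and NTG, at 0.24 ± 0.07 and an adjusted p of 0.0501. It was 1 of 2 such probe sets (2.27%, against 2.68% of all), and the other 2 probe sets of Psme3 gave -0.05 and 0.11.

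The 2 rises in ARG against NTG were both in the 19S lid, which had 21 probe sets of 8 genes and no other call there. Among all probe sets, 9.67% were called in that comparison and 4.04% rose. Psmd8, a lid subunit also known as Rpn12, has a single probe set, 1423296_at. Its values were -0.16 to 0.20 in NTG (median 0.11), -0.12 to 0.24 in AC5 (median 0.12), 0.13 to 0.44 in GLY (median 0.25) and 0.16 to 0.92 in ARG (median 0.36). ARG replicates 4 and 5, at 0.92 and 0.78, were the highest hearts, and 1 ARG heart, replicate 1 at 0.16, lay within the NTG range. Psmd8 rose in ARG against NTG by 0.41 ± 0.11 (adjusted p 0.0139, limma) and in ARG against AC5 by 0.38 ± 0.11 (adjusted p 0.0406). GLY lay between, at 0.22 ± 0.11 above NTG (adjusted p 0.274), and ARG against GLY was 0.19 ± 0.11 (95% interval -0.03 to 0.41, adjusted p 0.470). After quantile normalization the rise over NTG was 0.24 and was not called (adjusted p 0.174). Replicates 1 to 3 alone gave 0.20 (adjusted p 0.524) and replicates 4 to 6 alone 0.62 (adjusted p 0.0231). The call against AC5 was lost when any of AC5 replicates 1 to 4 or ARG replicates 2, 4 or 5 was left out, and after quantile normalization (0.21, adjusted p 0.375).

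Psmd13, the lid subunit Rpn9, rose at 1 of its 4 probe sets, 1445729_at. There the values were -0.19 to 0.10 in NTG (median -0.08), -0.13 to 0.60 in AC5 (median 0.16), -0.30 to 0.57 in GLY (median 0.44) and 0.15 to 0.78 in ARG (median 0.49). All ARG hearts lay above all NTG hearts, and GLY and AC5 overlapped both. The difference between ARG and NTG was 0.56 ± 0.14 (adjusted p 0.00859, limma), and it was 0.37 ± 0.14 between GLY and NTG (adjusted p 0.129). The other 3 probe sets of Psmd13 gave -0.03, 0.01 and -0.11 in ARG against NTG, with adjusted p from 0.670 to 0.979. The call of the gene thus rests on 1 probe set of 4. Replicates 4 to 6 alone gave 0.34 (adjusted p 0.216).

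Psmd10, also called gankyrin, is a chaperone that helps to assemble the ATPase ring of the base, and it was the member that fell in GLY hearts. At its single probe set, 1436559_a_at, the values were -0.27 to 0.16 in NTG (median -0.04), -0.36 to -0.18 in AC5 (median -0.29), -0.92 to -0.27 in GLY (median -0.51) and -0.58 to -0.02 in ARG (median -0.39). GLY and NTG did not overlap, but they nearly touched: the lowest NTG heart was at -0.265 and the highest GLY heart at -0.269. Psmd10 fell in GLY against NTG by 0.50 ± 0.10 on the log2 scale (adjusted p 0.00427, limma). Against NTG, ARG was at -0.29 ± 0.10 (adjusted p 0.0696) and AC5 at -0.25 ± 0.10 (adjusted p 0.521). ARG against GLY was 0.20 ± 0.10 (adjusted p 0.385). Without the 3 arrays of low weight the fall in GLY was 0.38 and still called (adjusted p 0.0334), and replicates 4 to 6 alone gave -0.32 (adjusted p 0.447). The 4 other probe sets of base chaperones, of Psmd5 and Psmd9, were not called.

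**Figure D4:**
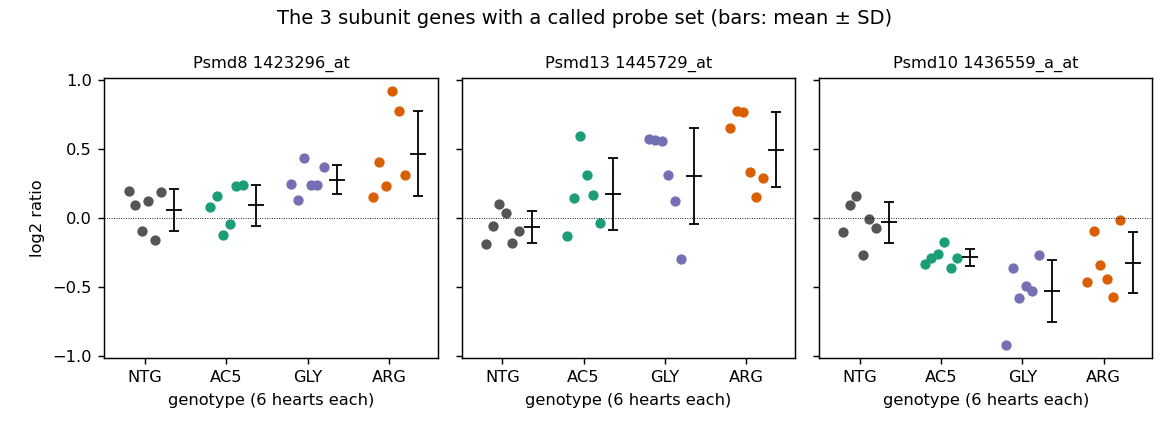
Log2 ratio (vertical axis) of Psmd8, Psmd13 (1445729_at) and Psmd10 in each of 6 hearts per genotype (horizontal axis); points are hearts, and bars are mean ± SD. Psmd8 reaches 0.92 in ARG, Psmd13 lies at 0.15 to 0.78 in ARG against -0.19 to 0.10 in NTG, and Psmd10 lies at -0.92 to -0.27 in GLY.

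Psmc6, an ATPase of the base known as Rpt4, showed the lowest values of all members, and it was singled out after its values were seen. At 1417770_s_at GLY replicates 1 and 3 were at -2.08 and -2.25, and the other 4 GLY hearts at -0.67 to 0.02. NTG hearts were at -0.54 to 0.31, AC5 hearts at -0.97 to -0.10 and ARG hearts at -1.28 to -0.07. At this probe set the 2 low GLY hearts stood apart from all others, and the next lowest heart was ARG replicate 1. At 1417769_at the ARG mean (-0.72) was below the GLY mean (-0.58), and ARG against NTG was -0.61 ± 0.23 (adjusted p 0.112, limma). ARG against NTG was -0.39 ± 0.29 at 1417770_s_at and -0.12 ± 0.19 at 1417771_a_at. All 3 probe sets of Psmc6 were below 0 in GLY, ARG and AC5 against NTG, and none was called: GLY against NTG was -0.87 ± 0.29, -0.51 ± 0.19 and -0.47 ± 0.23 (adjusted p 0.0803, 0.136 and 0.282, limma). Without the 3 arrays of low weight the first was -0.28 (adjusted p 0.475). Without GLY replicate 6, the highest GLY heart, it was -1.07 (adjusted p 0.0174). The other ATPases, Psmc1 to Psmc5, were not called, and the highest of their differences from NTG was 0.30 (Psmc4 in GLY).

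The same 2 GLY hearts were low at some other members and high at others. Their median over the 88 probe sets was 0.06 and 0.11. Above 0.5 lay 4 and 9 of the 88 members, where 3.24% and 6.90% of all probe sets did. Below -0.5 in both were 10 probe sets of 6 genes: 3 of Psmc6, 3 of the 6 of Psme4, and 1 each of Psmd10, Psmd14, Psmd6 and Psma4. That is 11.4% of the members, and 7.92% of all probe sets were below -0.5 in both hearts. Psme4 encodes the activator PA200. At 1426824_at it was at -0.99 and -1.01 in these hearts and at -0.01 to 0.05 in the other 4. Psmd14, the deubiquitinase of the lid, was at -0.67 and -0.67, with the others at -0.21 to 0.11. In these 2 hearts 10 and 13 of the 88 members lay below -0.5, where 10.3% and 10.1% of all probe sets did. They are also 2 of the 3 arrays of low weight. The part of array quality in these values was not tested.

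**Figure D5:**
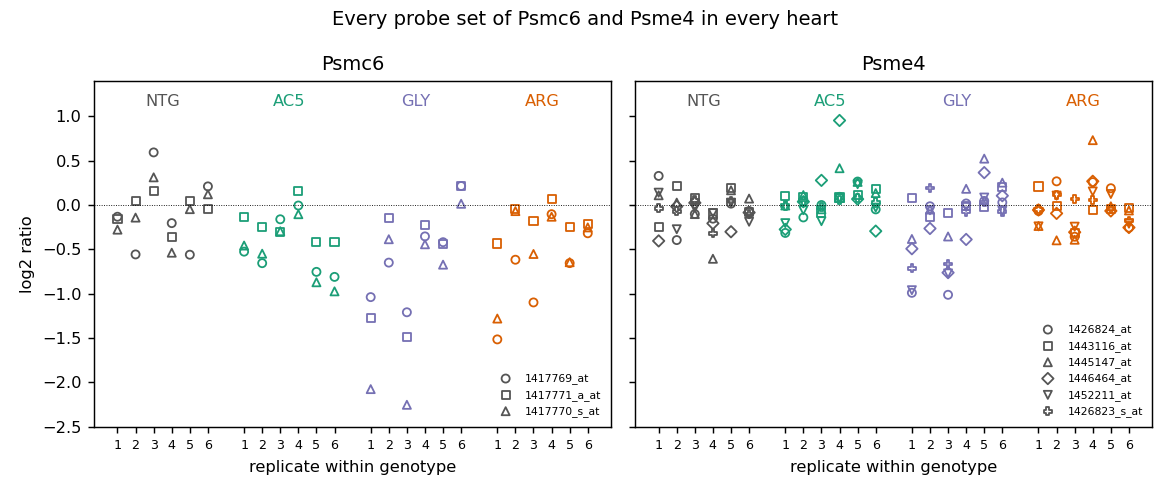
Log2 ratio (vertical axis) of the 3 probe sets of Psmc6 and the 6 of Psme4 in every heart (horizontal axis, replicate within genotype); each symbol is a probe set. GLY replicates 1 and 3 lie at -1.04 to -2.25 for Psmc6, and 3 probe sets of Psme4 lie at -0.67 to -1.01 there.

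Genes around the proteasome were counted by lists, each gene by 1 probe set; the lists were drawn up with earlier results of these data known. Of 14 measured assembly and accessory genes, 1 rose and 3 fell in ARG against NTG, and 0 rose and 2 fell in GLY against NTG, where 9.67% and 5.08% of all probe sets were called; the list's median difference was -0.08 and -0.09, against 0.00 and 0.03 for all probe sets. Pomp, the chaperone that matures the core, fell in both. Its values were -0.17 to 0.13 in NTG, -0.28 to -0.14 in AC5, -0.57 to -0.22 in GLY and -0.50 to -0.20 in ARG, so neither receptor genotype overlapped NTG. The fall was 0.30 ± 0.07 on the log2 scale in ARG and 0.34 ± 0.07 in GLY (adjusted p 0.00506 and 0.00574, limma), and it was called in all 12 fits that left out 1 heart in each comparison. With 3 hearts a group it was not called in ARG in replicates 1 to 3 (-0.38) or 4 to 6 (-0.22), nor in GLY in replicates 4 to 6 (-0.22). Zfand2a, which binds the proteasome under arsenite stress, was at -0.39 to 0.27 in NTG, -0.64 to -0.25 in ARG and -0.77 to -0.26 in GLY, with some overlap. It fell by 0.50 ± 0.10 in ARG and by 0.54 ± 0.10 in GLY (adjusted p 0.00144 and 0.00222, limma), with 3 of its 4 probe sets called in each. Psmf1, the inhibitor-like protein PI31, fell in ARG by 0.37 ± 0.09 (adjusted p 0.00679, limma), with 2 of its 4 probe sets called. Akirin2, a factor for nuclear import of proteasomes, rose in ARG by 0.23 ± 0.07 (adjusted p 0.0213, limma) at 1 of its 2 probe sets. After quantile normalization neither Psmf1 (-0.34) nor Akirin2 (0.14) was called in ARG, and Zfand2a (-0.40) was not called in GLY. In replicates 4 to 6 alone Zfand2a was called in neither ARG (-0.47) nor GLY (-0.34). Psmf1 (-0.50 and -0.24) and Akirin2 (0.17 and 0.29) were not called in ARG in replicates 1 to 3 or 4 to 6 alone. The Akirin2 call was also lost without NTG replicate 3 or ARG replicate 4.

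Of 11 measured transcription factors of proteasome genes and their regulators, Maff rose (0.43 ± 0.13, adjusted p 0.0309) and Nfyc fell (-0.29 ± 0.07, adjusted p 0.00851) in ARG against NTG, and none was called in GLY against NTG (all probe sets, 9.67% and 5.08% called). Maff was called in 5 of the 12 fits without 1 heart, and was lost when any 1 of NTG replicates 1, 3, 5 and 6 or ARG replicates 4 to 6 was left out. Both genes lost the call after quantile normalization, Maff at 0.28 and Nfyc at -0.25. Nfe2l1 was not called, at 0.02 ± 0.12 in ARG and -0.15 ± 0.12 in GLY against NTG. Nfe2l2, the regulator of the antioxidant response, was at -0.42 to 0.16 in GLY and 0.06 to 0.50 in ARG. It rose in ARG against GLY by 0.38 ± 0.09 (adjusted p 0.0289, limma) at 1 of its 2 probe sets. Its difference from NTG was called in neither. GLY replicates 1 to 3 were at -0.18, -0.23 and -0.42, and GLY replicates 4 to 6 at 0.09, 0.16 and -0.10. Of all probe sets, 1.51% were called in ARG against GLY, and 0.129% after quantile normalization.

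Of 14 measured genes of ubiquitin supply and delivery, 1 rose and 1 fell in ARG against NTG, and 2 rose and 1 fell in GLY against NTG (all probe sets, 9.67% and 5.08% called). Ufd1, which with p97 draws out ubiquitin-tagged proteins for the proteasome, was at -0.09 to 0.09 in NTG, -0.34 to -0.09 in AC5, -1.08 to -0.33 in GLY and -0.74 to -0.36 in ARG. GLY and ARG hearts lay well below all NTG hearts, and AC5 hearts lay just below them. It fell by 0.60 ± 0.10 in ARG and by 0.66 ± 0.10 in GLY (adjusted p 0.000196 and 0.000326, limma). The GLY fall was not called in replicates 4 to 6 alone, at -0.40 against -0.93 in replicates 1 to 3. Ubqln2, a shuttle that carries tagged proteins to the proteasome, rose by 0.43 ± 0.11 in ARG and 0.41 ± 0.11 in GLY (adjusted p 0.0112 and 0.0275), at 1 of its 3 probe sets. The GLY call of Ubqln2 was lost when any 1 of NTG replicates 1, 3 and 5 or GLY replicates 1, 3 and 4 was left out. After quantile normalization Ubqln2 was called in neither ARG (0.32) nor GLY (0.35). In replicates 4 to 6 alone it was also called in neither (0.51 and 0.33), and in replicates 1 to 3 alone not in ARG (0.34). The GLY call was lost too with the trend and robust prior and without the arrays of low weight.

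Of 13 measured class I antigen presentation genes, which act on the peptides the immunoproteasome makes, 2 rose and 1 fell in ARG against NTG (9.67% of all probe sets called). After quantile normalization Calr (0.37) and H2-D1 (-0.32) were not called. Calr and Tapbp, both chaperones of the peptide-loading complex, rose by 0.55 ± 0.14 and 0.43 ± 0.10 (adjusted p 0.0109 and 0.00518, limma). Calr was called at all 3 of its probe sets and Tapbp at 1 of its 2. In replicates 1 to 3 alone neither was called (0.35 and 0.36). H2-D1, a class I heavy chain of a family of near-identical genes, fell by 0.44 ± 0.12 at 1 of its 9 probe sets (adjusted p 0.0193), and this was lost without NTG replicate 5 or ARG replicate 3. In GLY against NTG H2-D1 fell at that probe set too, by 0.58 ± 0.12 (adjusted p 0.00570, limma). This fall was not called after quantile normalization (-0.46) or in replicates 4 to 6 alone (-0.53). Tap1, which shares the start region of Psmb9, was at 0.00 ± 0.11 in ARG and 0.11 ± 0.11 in GLY against NTG, and was not called. Of 17 interferon-induced genes 2 rose in ARG against NTG and none was called in GLY against NTG, and of 14 leukocyte and lymphocyte markers none and 1 rose (all probe sets, 9.67% and 5.08% called). The mean of the interferon-induced genes was -0.11 to 0.82 in AC5 hearts, with a median heart at -0.05, and that of the immunoproteasome genes was -0.21 to -0.08 in the same 6 hearts. In AC5 against NTG no gene of these lists was called, where 0.142% of all probe sets were.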

How the data were processed

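RNA was extracted from 24 hearts, labelled with biotin and hybridised to Affymetrix arrays, per the labels' protocols. RMA is named in the submitters' processing notes without a version. Values were deposited as a linear ratio, centred near 1 in NTG. How the authors formed the ratio is not stated, and it holds no signal level, so no brightness filter was applied.

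Of 45101 probe sets, 64 controls were left out. Of the rest, 34945 carried 1 symbol, 932 several and 9160 none. With limma 3.58.1 (R 4.3.3), a linear model of the log2 ratios took 1 mean for each genotype over the 24 arrays and no covariate. The p-values were adjusted by Benjamini-Hochberg over the 45037 probe sets of each of 6 comparisons and called under 0.05. The median SE was 0.0992, and the number of arrays limits the precision. The fit was tested on simulated data with known changes in ARG against NTG. Its noise was normal and independent between arrays, and 100 probe sets were changed by each size. Of changes of 0.3 on the log2 scale 13% were recovered, and of changes of 0.6 79%. In the real comparison 9.67% of all probe sets were called and the arrays differed in weight. The recovered shares need not hold there. Plots used matplotlib 3.10.9, and tables pandas 2.3.3 and numpy 2.4.6 under Python 3.11.15.

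The members and lists were chosen with earlier results of these data known. Named with full values were Psmb5 to Psmb10 and Psme1 in any case (Psme2, also in the rule, had no probe set of its own), and per comparison up to 6 rises and 6 falls among called members. A gene in a list counted by 1 probe set, taken by suffix (_at first, then _a_at, _s_at and _x_at) and then by lowest number. Psmc6, Psme4, Psmd14, Pomp and Psmf1 were described after their values were seen. Alternatives were quantile normalization, a replicate block, a term for replicates 1 to 3 against 4 to 6, each of these sets alone, array weights, only 2 genotypes, no cross-matching probe sets, a trend and robust prior, and leaving out each heart. Leaving out the arrays of weight under 0.5 was added after seeing the data.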

Additional observations from a re-analysis of the deposited data

Results flagged for a closer look

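Each named probe set, and the score of immunoproteasome minus constitutive subunits, was compared between the 6 hearts of a genotype by Dixon's gap over range, at its 95% critical value. Of 48 groups tested 2 were beyond it, and chance flags about 1 in 20 groups. Psmb6 in NTG replicate 6 was at -0.0974, below the other NTG hearts at 0.0151 to 0.0806, with a gap of 0.632 of the range. Psme1 in ARG replicate 4 was at -0.506, below the other ARG hearts at -0.125 to 0.0369, with a gap of 0.702 of the range.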

How the results depend on the processing

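The count of proteasome calls in ARG against NTG (2) was 1 after quantile normalization and in replicates 4 to 6 alone, and 4 with the replicate block (Psmd10, Psmd11, Psmd13 and Psmd8) or array weights. In GLY against NTG (1) it was 2 with the replicate block or the term for the set of replicates, 5 in replicates 1 to 3 alone and 0 in replicates 4 to 6 alone. In ARG against GLY (0) it was 1, Psme1, with the set term and with the trend and robust prior. In ARG against AC5 (1) it was 0 after quantile normalization, with the replicate block, in each set of replicates alone, with only 2 genotypes and with the trend and robust prior, and 2 without the arrays of low weight. Leaving out 1 heart gave 2 to 4 calls in ARG against NTG, 1 to 6 in GLY against NTG (6 without GLY replicate 6), 0 to 0 in AC5 against NTG, and 0 to 1 in each of the other 3. The share of all probe sets called moved as well, from 2.89% to 13.2% in ARG against NTG and from 0.160% to 6.26% in GLY against NTG over these settings, leave-one-out apart (quantile normalization, 5.33% and 1.41%; replicates 1 to 3, 2.89% and 6.08%). In ARG against AC5 it was 4.93%, and 1.97% after quantile normalization, 0.542% and 3.04% in the 2 sets of replicates and 7.86% without the arrays of low weight. The cause of these shifts was not tested.

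Differences of uncalled catalytic subunits turned sign under some settings. In ARG against NTG Psmb10 was 0.115 in replicates 4 to 6 and 0.0289 without the arrays of low weight, Psmb7 -0.0584 in replicates 1 to 3, and Psmb9 0.0552 in replicates 4 to 6. In replicates 1 to 3 Psmb7 was -0.0523 in GLY and -0.0112 in AC5 hearts relative to NTG. In ARG against GLY replicates 1 to 3 gave -0.0865 for Psmb10 and -0.0809 and -0.0186 for Psmb8, and replicates 4 to 6 gave 0.0525 for Psmb5 and 0.0204 for Psmb9. Array weights gave 0.0314 for Psmb5 and 0.0194 for Psmb6, quantile normalization gave 0.00882 for Psmb6, and leaving out the arrays of low weight gave 0.0612 for Psmb5 and 0.024 for Psmb6. Leaving out 1 heart turned the sign of Psmb10 (-0.0232 to 0.163), Psmb5 (-0.0894 to 0.00330), Psmb6 (-0.0554 to 0.0256), Psmb7 (-0.0573 to 0.00177), Psmb8 1422962_a_at (-0.0733 to 0.0984), Psmb8 1444619_x_at (-0.0282 to 0.0387) in ARG against GLY; Psmb10 (-0.0694 to 0.0289), Psmb7 (-0.0107 to 0.0375) in ARG against NTG; Psmb5 (-0.0103 to 0.0583) in AC5 against NTG. The score of immunoproteasome minus constitutive subunits, relative to NTG, was -0.11 to -0.01 in ARG, -0.09 to 0.03 in GLY and -0.19 to -0.13 in AC5 when 1 heart was left out, and -0.10 to 0.03 for ARG against GLY.

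The labels name no pairing or batch, so the replicate numbers were not treated as pairing the hearts, and a replicate block was fitted as an alternative. No pair of genotypes had all 6 same-numbered correlations of deviations above 0.1. GLY and ARG had 5 of 6, with the lowest at 0.0525 and a median of 0.252, against a median of -0.0723 for other numbers. Of 6 hearts, 3 correlated best with their own number. The main fit of ARG against GLY treated these hearts as independent. AC5 and ARG also had 5 of 6, and the other 4 pairs had 0 to 3. With the replicate block Psmd8 was at an adjusted p of 0.0543 (limma) in ARG against AC5.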
